A study of Mus musculus with 6 samples.

Results

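The semaphorins, plexins, Slits, Robos, netrins and Unc5 receptors are families of guidance cues and their receptors. They were described here in 6 single-color arrays of 1G11 cells, a mouse microvascular endothelial cell line whose strain is given as C57BL/6NCrLBR. There were 3 arrays of mock-modified cells (1G11-mock) and 3 of cells overexpressing the secreted superoxide dismutase SOD3 (1G11-SOD3). All cells had been given conditioned medium of N202.1A, a murine mammary cancer line, for 6 h, so no array shows either line without that medium. Whether each line is a clone or a pool is not given in the sources used here. The members were chosen by name, as the non-control spots whose gene symbol starts with Sema3 to Sema7, Plxna to Plxnd, Slit1 to Slit3, Robo1 to Robo4, Ntn1, Ntn3, Ntn4 or Unc5a to Unc5d. This gave 57 of the 59305 non-control spots, each a different probe, for 45 gene symbols. The letters also cover *Plxna4os1*, an RNA antisense to the *Plxna4* locus, and *Unc5cl*, which encodes an Unc5-like protein that is not a netrin receptor, and both were kept. Of the 57 spots, 5 lay in the middle of the array (rows 129 to 256 and columns 55 to 109 of a grid of 384 rows and 164 columns), and they are given apart from the other 52.

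Guidance cues were first described in growing axons and also steer sprouting vessels. Semaphorins signal through plexins, which carry a GTPase-activating domain for small GTPases of the Ras family; the secreted class 3 semaphorins mostly need a neuropilin (*Nrp1* or *Nrp2*) as co-receptor, whereas Sema3E binds plexin D1 directly, a pair known for restraining endothelial sprouts. Slits are secreted ligands of Robo receptors, of which Robo4 is known from endothelium. Netrins are secreted, laminin-related ligands of Dcc, neogenin and the Unc5 receptors, and Unc5b is the member known from endothelial cells.

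Each array value is the intensity at a 60-base probe. Probes are shown for the 5 genes with a limma adjusted p below 0.05, of which *Slit2* was not called, as described below. Both *Sema3a* probes are shown because they gave different results. The first 30 of 60 bases are given 5′ to 3′, in lower case.
*Sema5a*: gttttgtgtaaatagtttgccttgttcagt
*Unc5a*: ccggggcacgtagggattttagcggatgtg
*Slit2*: gggagggtgggagaagaaagactgttatgt
*Sema4g*: ctcttgggtgaggatgactgttatttttgt
*Sema3a*, probe in the middle of the array: tatgcctgtggaactggggctttccatcca
*Sema3a*, probe elsewhere: gatgggaactagaaaactggagagaaaaat
The array annotation, whose genome build is not given in the files, places the *Sema5a* probe at chr15:32626025-32626084, the *Unc5a* probe at chr13:55107318-55107377 and the *Slit2* probe at chr5:48696673-48696732, all on the plus strand. The *Sema4g* probe lies at chr19:45077642-45077701 on the same strand. The *Sema3a* probes lie at chr5:13473453-13473512 and chr5:13602462-13602521, starting at bases 1036 and 5826 of their target transcript. Exons and UTRs were not assigned, since no genome of a stated build was at hand. Where a gene has several probes, each is named below by its start base on the transcript.

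Values are normalized log2 intensities, and a difference is 1G11-SOD3 minus 1G11-mock, with its standard error (SE) from limma and a p-value adjusted by Benjamini-Hochberg over all 55681 probes. Probes were called where the lines differed over 2-fold with an adjusted p below 0.05. "Well above background" is the scanner software's own mark, and no spot was saturated. The mark was given to 36.0%, 34.4% and 34.2% of the spots on the 1G11-mock arrays. On the 1G11-SOD3 arrays it was given to more, 38.4%, 38.5% and 43.8%. The share of all probes marked on every array of 1G11-SOD3 and on none of 1G11-mock is not given here. The *Sod3* probe read 13.61, 12.66 and 9.86 in 1G11-mock and 16.37, 16.30 and 16.26 in 1G11-SOD3, so all arrays matched their labels. It lies in the middle of the array, where the 1G11-mock arrays were dim. For 128 probes printed both there and elsewhere, the copies in the middle read lower than the others by a median of -0.83, -1.27 and -2.62 on the 3 1G11-mock arrays, against 0.22, -0.22 and 0.13 on the 1G11-SOD3 arrays. All arrays were on 1 slide, with 1G11-SOD3 in its first row and 1G11-mock in the second, so the place on the slide and the cell line cannot be told apart. Differences of the members are therefore also given after a position adjustment, in which a smooth surface over the array, scaled to spot intensity, was taken off each array. The *Sod3* difference was 4.27 as measured and 2.29 (limma, adjusted p = 0.0253) after that adjustment, called higher in both. Among copies of a probe, the adjustment lowered the SD of the difference from 0.667 to 0.178, over 192 probes held out of the surface. The width of the surface was chosen by the spread among these same probes, so the drop is no independent test. All had a mean above 9, so probes at background were not covered.

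**Figure D1:**
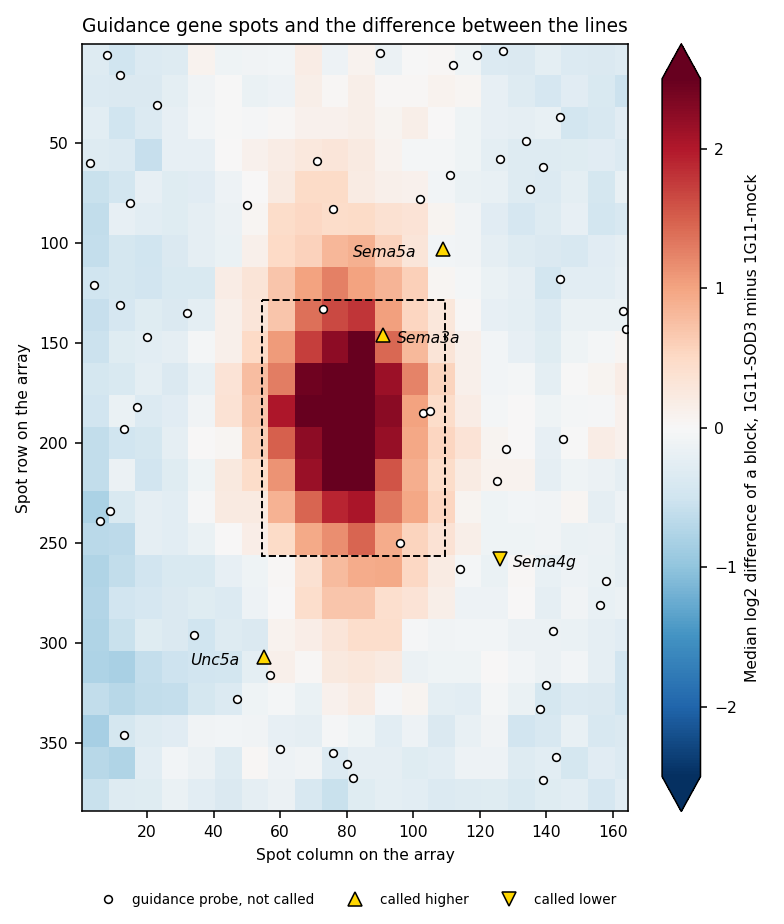
Map of the array by spot column and spot row, in which colors give the median log2 difference, 1G11-SOD3 minus 1G11-mock, in blocks of 16 rows and 8 columns (spots with a mean of at least 9; colors end at 2.5, and the highest block is at 3.91); symbols are the 57 guidance spots and the dashed frame is the middle of the array. The differences are largest inside the frame, which holds 5 of the guidance spots, among them the called *Sema3a* probe, while *Sema5a*, *Unc5a* and *Sema4g* lie outside it.

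The paper states that 1G11 cells were regularly checked for endothelial origin by staining for VE-cadherin, the protein encoded by *Cdh5*. Here the label of an endothelial line was set against the RNA of 12 endothelial markers. *Kdr*, *Eng*, *Vwf* and *Esam* were well above background on all 6 arrays, but *Cdh5*, *Tek*, *Tie1*, *Erg* and *Emcn* were so on none. *Pecam1* was so on 2 arrays of each line. *Flt1*, in the middle of the array, was so on 2 1G11-mock and 3 1G11-SOD3 arrays, and *Cldn5* on 1 1G11-mock array. The arrays read *Cdh5* RNA at 1 probe and do not measure its protein. *Vwf* was called lower in 1G11-SOD3, with a difference of -1.66 (-1.53 after the adjustment). The summed endothelial marker intensity ranged over 14.45 to 14.88 on the 1G11-mock arrays and 13.91 to 14.20 on the 1G11-SOD3 arrays. Of 7 mesenchymal or mural markers, 4 were called higher in 1G11-SOD3, with differences of 2.40 for *Pdgfrb*, 3.1 for *Col1a1*, 3.01 for *Acta2* and 1.90 for *Lum*. *Dcn* (0.29), *Pdgfra* (0.52) and *Cspg4* (0.13) were not called. The summed intensity of that list lay between 14.37 and 15.13 on the 1G11-mock arrays and between 15.35 and 17.41 on the others. That sum is as measured and follows the brightest probes. *Dcn* read 17.05 on 1G11-SOD3 replicate 3, but 13.51 and 13.59 on replicates 1 and 2, below its 14.78, 14.48 and 14.04 in 1G11-mock. After the adjustment described above, *Pdgfrb*, *Col1a1* and *Acta2* stayed called, with differences of 2.24, 2.21 and 2.45, and *Lum* did not (1.82, adjusted p = 0.0805). The epithelial markers *Epcam* and *Krt18*, the leukocyte markers *Ptprc* and *Cd68* and the neuronal marker *Rbfox3* were well above background on no array, whereas *Itgam* and *Snap25* were so on all 6. The epithelial marker *Cdh1* was so on 1 1G11-mock and 3 1G11-SOD3 arrays. *Krt8*, also epithelial, was so on 1 1G11-SOD3 array, and the neuronal *Map2* on 1 1G11-mock array. The neuronal marker *Tubb3*, in the middle of the array, was called higher with a difference of 1.73, which was -0.17 after the adjustment. The part of the mesenchymal marker difference in the guidance results was not tested.

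Between the lines, 53 of the 57 guidance probes were not called. The differences that passed outside the middle of the array were a higher *Sema5a*, a semaphorin with thrombospondin repeats, a higher *Unc5a*, a netrin receptor, and a lower *Sema4g*, a transmembrane semaphorin. Of the 52 probes outside the middle, 2 were called higher, where 0.642% of all probes wholly outside the middle were, and 1 was called lower, where 1.18% were. Among the 5 probes in the middle, 1 was called higher and none lower, against 11.7% and 0.0487% of all probes wholly in the middle. A share of 1 in 5 there rests on 1 probe and is no result about these genes. After the position adjustment, 2 of the 57 were called higher and 1 lower, against backgrounds of 0.56% and 0.661%. The members called outside the middle were the same 3 with and without the adjustment.

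The 3 arrays of 1G11-SOD3 lay above all 3 of 1G11-mock at 11 probes and below them at 8, and the lines overlapped at 38. Among all probes, 20.7% had no overlap in either direction. The median difference over the members was 0.02, beside -0.03 over all probes, and 0.09 beside 0.00 after the adjustment. At an unadjusted limma p under 0.05 there were 16 members, and 5 had an adjusted p under 0.05. The shares of all probes under these thresholds are not given here, so these counts are no result about the members. In bulk RNA, fewer cells of a type and less RNA per cell cannot be told apart, which holds for every difference below.

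**Figure D2:**
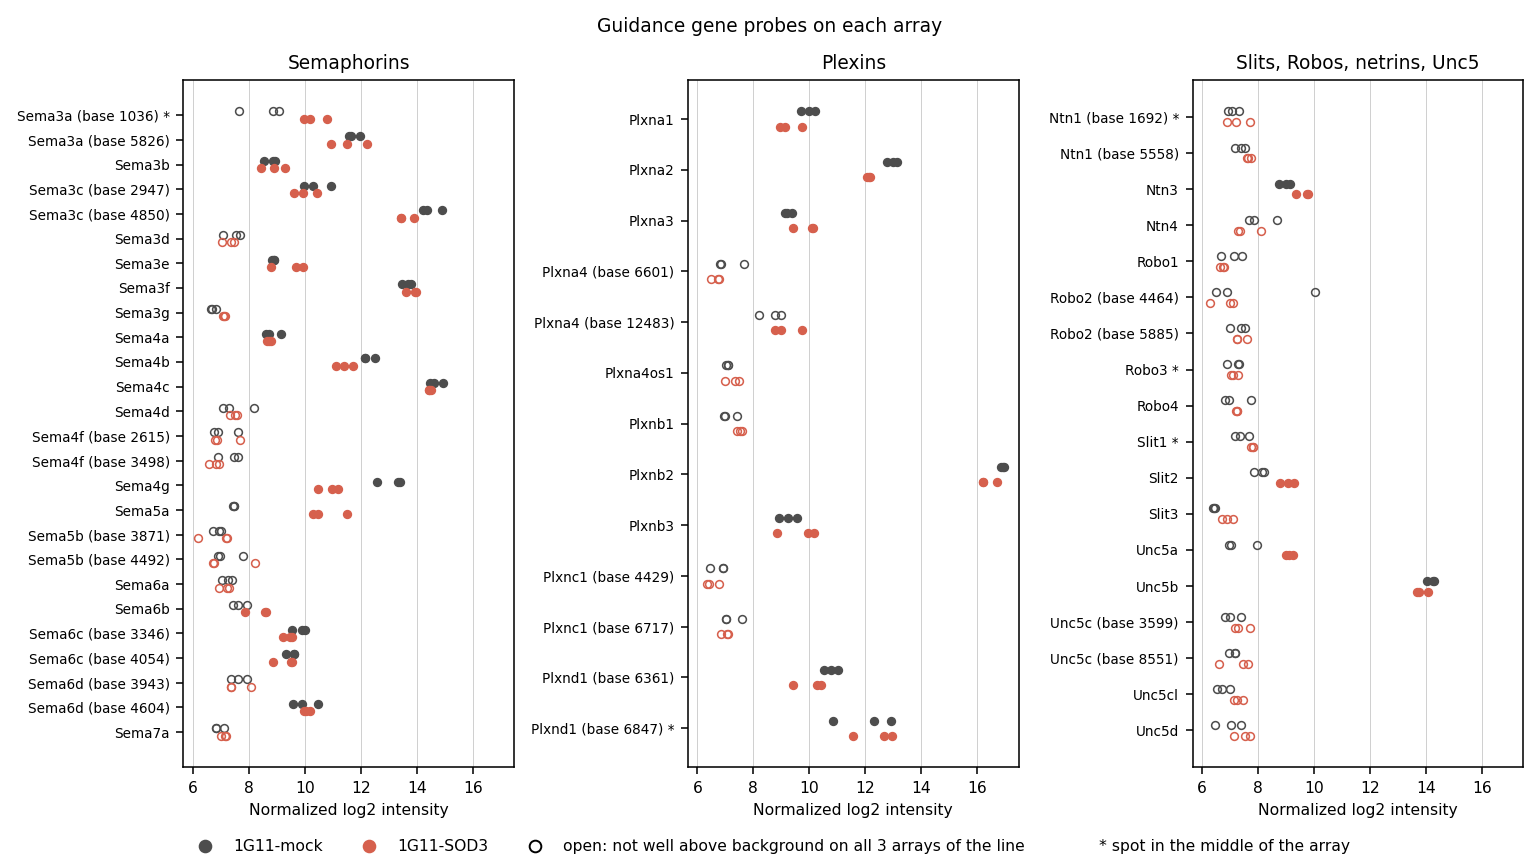
Normalized log2 intensity of the 57 guidance probes on each of the 3 1G11-mock and 3 1G11-SOD3 arrays (no mean or error shown). Filled circles mark lines in which the probe was well above background on all 3 arrays; intensities of different probes cannot be set against each other. The called probes of *Sema5a* and *Unc5a* are open in 1G11-mock and filled in 1G11-SOD3.

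A signal was not found for every family. Of the 45 genes, 24 had a probe well above background on all arrays of at least 1 line, and 19 had one on all 6 arrays. For 17 genes no probe was well above background on any array: *Ntn1*, *Plxna4os1*, *Plxnb1*, *Plxnc1*, *Robo1*, *Robo3*, *Robo4*, *Sema3d*, *Sema3g*, *Sema4d*, *Sema4f*, *Sema6a*, *Sema7a*, *Slit3*, *Unc5c*, *Unc5cl* and *Unc5d*. No fold change is given for these. At the array's background a transcript may be absent or merely too scarce to be read.

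Among the secreted class 3 semaphorins, which act at a distance from the cell that makes them, 7 of 9 probes (5 of 7 genes) were well above background on all arrays of a line, and 1 was called. *Sema3f* read 13.69, 13.80 and 13.49 in 1G11-mock and 13.95, 13.98 and 13.60 in 1G11-SOD3. The lines overlapped, and the difference of 0.18 had a 95% interval of -0.32 to 0.68. After the position adjustment all 1G11-SOD3 arrays lay above all 1G11-mock arrays, with a difference of 0.54 (0.06 to 1.02; adjusted p = 0.318). *Sema3c* gave the brightest class 3 signal, at its probe starting at base 4850, with 14.90, 14.38 and 14.22 in 1G11-mock and 13.43, 13.44 and 13.92 in 1G11-SOD3. The lines did not overlap there, but the difference of -0.90 (SE 0.26) did not pass (limma, adjusted p = 0.102; -0.74 after the position adjustment). The second *Sema3c* probe, starting at base 2947, overlapped between the lines with a difference of -0.41 (-0.13 after the adjustment). *Sema3e*, the ligand of plexin D1, read 8.84, 8.90 and 8.91 in 1G11-mock and 8.81, 9.69 and 9.92 in 1G11-SOD3. One 1G11-SOD3 array thus lay below the 1G11-mock arrays and the others above, and the difference of 0.59 had an adjusted p of 0.392 (0.61 and 0.356 after the adjustment). *Sema3b* was well above background on all arrays with a difference of 0.09, and 0.37 after the adjustment.

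*Sema3a*, a repellent for axons and endothelial cells, was called at 1 of its 2 probes. At the probe in the middle of the array it read 8.87, 9.08 and 7.66 in 1G11-mock and 10.20, 9.96 and 10.81 in 1G11-SOD3. There 1G11-mock replicate 3 was lowest and was the array of that line not well above background. The difference was 1.79 (SE 0.37; limma, adjusted p = 0.0242) and was called higher in 1G11-SOD3. Without 1G11-SOD3 replicate 1 the adjusted p was 0.0673, and without replicate 3 of that line it was 0.111. The fitted surface itself differed between the lines by 1.59 at this spot, and after the position adjustment the difference was 0.62 with an adjusted p of 0.285. The other *Sema3a* probe, outside the middle, read 11.96, 11.67 and 11.58 in 1G11-mock and 10.93, 11.52 and 12.24 in 1G11-SOD3. The 1G11-SOD3 arrays lay on both sides of the 1G11-mock arrays, and the difference was -0.17 (SE 0.31; adjusted p = 0.859), or 0.25 after the adjustment. A higher *Sema3a* in 1G11-SOD3 was therefore seen at the probe inside the dim area and not at the probe outside it.

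The class 4 semaphorins are membrane proteins of which some signal through B plexins. They held the member that was called lower, *Sema4g*. It read 12.57, 13.39 and 13.34 in 1G11-mock, a mean of 13.10 ± 0.46 (SD, n = 3), and 10.48, 10.99 and 11.19 in 1G11-SOD3, a mean of 10.89 ± 0.37 (SD, n = 3). Every 1G11-SOD3 array was more than 1 log2 unit below every 1G11-mock array. The difference was -2.21 (SE 0.29; limma, adjusted p = 0.00236), and -2.01 (adjusted p = 0.00135) after the position adjustment. Leaving out any array kept the call, with differences of -2.48 to -1.99. *Sema4b* moved the same way without passing, from 12.51, 12.17 and 12.15 to 11.72, 11.41 and 11.11. All its 1G11-SOD3 arrays were below all 1G11-mock arrays, and the difference of -0.86 had an adjusted p of 0.0967 (-0.95 and 0.0658 after the adjustment). *Sema4c*, a ligand of plexin B2 and the brightest class 4 probe, read 14.47, 14.95 and 14.63 in 1G11-mock and 14.50, 14.43 and 14.45 in 1G11-SOD3. Those groups overlapped, with a difference of -0.22 (adjusted p = 0.713). Its spot lies outside the middle, yet the surface differed there by 1.04, and the adjusted difference was -0.75 (adjusted p = 0.184). *Sema4a* had a difference of -0.09 with a 95% interval of -0.60 to 0.42 (0.00 after the adjustment).

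*Sema5a* showed the largest difference among the 57 probes. This transmembrane semaphorin carries thrombospondin repeats and binds heparan and chondroitin sulfate proteoglycans. It read 7.48, 7.47 and 7.42 in 1G11-mock (mean 7.46 ± 0.03 SD, n = 3) and 10.46, 10.31 and 11.50 in 1G11-SOD3 (mean 10.76 ± 0.65 SD, n = 3). It was well above background on all 3 arrays of 1G11-SOD3 and on none of 1G11-mock, so that only a bound can be given, at least 6.40-fold higher in 1G11-SOD3. That bound takes, for each 1G11-mock array, the higher of its own value and the lowest signal that was well above background there. It allows for the detection limit only and not for the spread among arrays, which holds for the bounds below too. The 95% interval of the measured difference was 2.63 to 3.97. The measured difference was 3.30 (SE 0.31; limma, adjusted p = 0.000375) and 3.17 (adjusted p = 0.00058) after the position adjustment. Leaving out 1 array at a time moved it between 2.81 and 3.50, with every adjusted p under the threshold. *Sema5b*, the other class 5 gene, stayed near background at both probes, with differences of -0.02 and 0.02 (0.00 and 0.07 after the adjustment), and was well above background on 1 array in all.

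Class 6 semaphorins are transmembrane ligands of A plexins, and none of their 6 probes was called. *Sema6d* read 9.59, 9.89 and 10.48 in 1G11-mock and 9.97, 10.18 and 10.06 in 1G11-SOD3 at its brighter probe. The lines overlapped, and the difference of 0.08 had a 95% interval of -0.50 to 0.66 (0.14 after the adjustment). *Sema6c* had differences of -0.22 and -0.41 at its probes, which were 0.09 and -0.13 after the adjustment, none past the threshold. *Sema6b* was well above background on the 3 arrays of 1G11-SOD3 and on none of 1G11-mock, but its difference of 0.69 had an adjusted p of 0.246 (0.71 and 0.233 after the adjustment). *Sema7a*, the GPI-anchored semaphorin that binds plexin C1, read between 6.83 and 7.17 on all arrays, and both *Plxnc1* probes were likewise at background.

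No plexin was called. Of 12 plexin probes, 7 were well above background on all 6 arrays, and the median difference was -0.22 with and without the adjustment. *Plxna2*, a receptor for class 3 and class 6 semaphorins, came closest, with 13.14, 13.00 and 12.79 in 1G11-mock and 12.18, 12.13 and 12.07 in 1G11-SOD3. The lines were fully apart, and the difference was -0.85 (SE 0.22; limma, adjusted p = 0.0656). After the position adjustment 1G11-SOD3 replicate 1 read 12.91 and lay among the 1G11-mock arrays, and the difference was -0.30 (adjusted p = 0.643). *Plxnb2*, the receptor of Sema4C, was the brightest of all member probes, at 16.92, 16.94 and 16.84 in 1G11-mock and 16.22, 16.71 and 16.21 in 1G11-SOD3. Its lines did not overlap as measured and did after the adjustment, and the difference of -0.52 (adjusted p = 0.334) became -0.23. *Plxna1* had a difference of -0.69 (adjusted p = 0.244), or -0.25 after the adjustment, and *Plxna3* one of 0.66 (adjusted p = 0.243), or 0.45. *Plxnb3*, well above background on all 6 arrays, had a difference of 0.42 (limma, adjusted p = 0.641), or 0.72 (adjusted p = 0.301) after the adjustment. The *Plxna4* probe starting at base 12483 was well above background on 2 1G11-mock and 3 1G11-SOD3 arrays. Its difference was 0.51 (limma, adjusted p = 0.495), or 0.76 (adjusted p = 0.306) after the adjustment.

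*Plxnd1*, the receptor for Sema3E and the plexin best known from endothelium, had a probe on either side of the boundary. Outside the middle it read 10.52, 10.79 and 11.01 in 1G11-mock and 10.29, 10.40 and 9.43 in 1G11-SOD3. All 1G11-SOD3 arrays were below all 1G11-mock arrays, with a difference of -0.73 (SE 0.29; adjusted p = 0.263), or -0.55 after the adjustment. In the middle it read 12.91, 12.30 and 10.85 in 1G11-mock and 12.97, 12.65 and 11.56 in 1G11-SOD3, with replicate 3 lowest in each line. That probe's difference was 0.37 (SE 0.49), turning to -0.54 after the adjustment, with adjusted p = 0.789 and 0.534. The *Plxnd1* probes thus had opposite signs as measured and the same sign once position was adjusted, and neither passed the test. With a surface not scaled to spot intensity, the differences were -0.57 outside the middle and -0.28 in it.

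**Figure D3:**
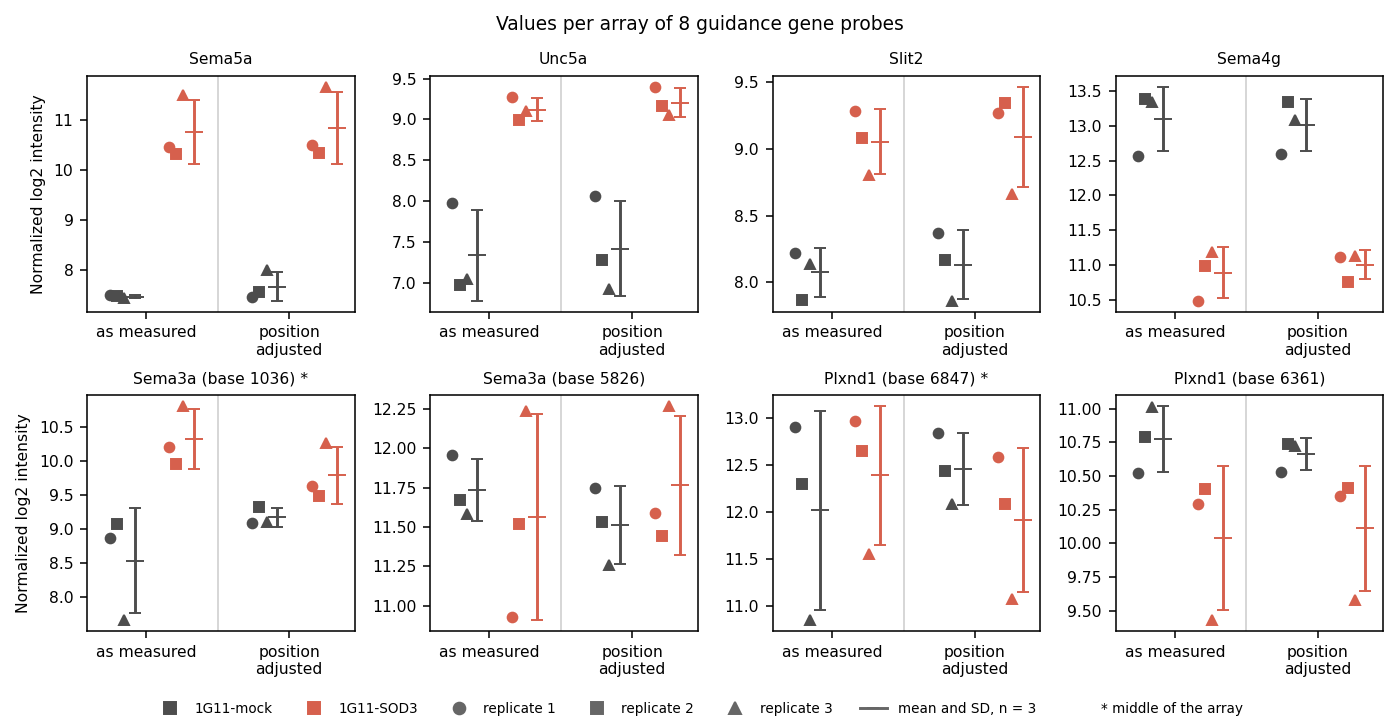
Normalized log2 intensity of 8 probes on each array, as measured on the left and position adjusted on the right of each panel, with mean and SD (n = 3 arrays per line); the vertical scales differ and do not start at 0. *Sema5a*, *Unc5a*, *Slit2* and *Sema4g* look alike in both, while the *Sema3a* probe in the middle narrows from a difference of 1.79 to 0.62.

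For the Slit ligands the signal was low. *Slit2* read 8.22, 7.87 and 8.14 in 1G11-mock and 9.28, 9.08 and 8.80 in 1G11-SOD3. It was well above background on all arrays of 1G11-SOD3 and on none of 1G11-mock, and the lines did not overlap. The bound from the detection limit was 1.87-fold, without the spread among arrays. The measured difference of 0.98 (SE 0.23, limma, adjusted p = 0.0463) passed the p threshold but not the 2-fold one. Its 95% interval was 0.47 to 1.49. After the position adjustment the difference was 0.96 and the adjusted p 0.0877. *Slit1*, in the middle of the array, was well above background on 1 array, and *Slit3* on none.

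The Robo receptors gave almost no signal. *Robo1*, *Robo3* and *Robo4* were at background on all arrays, including *Robo4*, which read 6.96, 6.81 and 7.74 in 1G11-mock and 7.23, 7.26 and 7.24 in 1G11-SOD3. At its probe starting at base 4464, *Robo2* read 6.50, 10.03 and 6.89 in 1G11-mock and 7.0, 7.12 and 6.27 in 1G11-SOD3. Its high value came from 1G11-mock replicate 2 alone, and the second *Robo2* probe read 7.52 on that array.

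Of the netrins, *Ntn3* was well above background on all 6 arrays. It read 9.13, 8.99 and 8.76 in 1G11-mock and 9.80, 9.74 and 9.35 in 1G11-SOD3. The 1G11-SOD3 arrays were all higher, but the difference of 0.67 (SE 0.23) had an adjusted p of 0.196, and 0.70 with 0.123 after the adjustment. *Ntn1*, the netrin for which the family is best known, was at background at both probes, and *Ntn4*, a netrin of vascular basement membranes, was well above background on 1 array of each line.

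Netrin receptors of the Unc5 family differed in their pattern. *Unc5b* read 14.25, 14.04 and 14.30 in 1G11-mock and 14.09, 13.69 and 13.76 in 1G11-SOD3. The lines overlapped, and the difference was -0.35 with a 95% interval of -0.85 to 0.15 (-0.06 after the adjustment). *Unc5a*, a receptor with a death domain that is studied mainly in neurons, read 7.98, 6.98 and 7.05 in 1G11-mock (mean 7.34 ± 0.56 SD, n = 3) and 9.27, 8.99 and 9.10 in 1G11-SOD3 (mean 9.12 ± 0.14 SD, n = 3). It was well above background on every 1G11-SOD3 array and on no 1G11-mock array, a difference of at least 2.05-fold. The measured difference was 1.78 (SE 0.29; limma, adjusted p = 0.0069), and 1.78 again (adjusted p = 0.00874) after the position adjustment. With the adjustment and without 1G11-mock replicate 2, the adjusted p was 0.0577. *Unc5c* and *Unc5d* were at background on all arrays. *Unc5cl*, at 6.71, 6.55 and 7.01 in 1G11-mock and 7.47, 7.25 and 7.15 in 1G11-SOD3, was also well above background on none, so its values are given without a fold.

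On the 22 probes well above background on all 6 arrays, *Sema4g* was the called member, and the median difference was -0.22 as measured and -0.10 after the adjustment. Over the 16362 such probes of the whole array the medians were -0.13 and 0.00, with 454 called higher and 496 lower. The called increases came at probes that were at background on some or all 1G11-mock arrays. Of 12 genes with more than 1 probe, *Sema3a* was the one with a called probe, and no gene had all its probes called. *Sema5a*, *Unc5a* and *Sema4g* have 1 probe each on the array, so that no second probe bears on them.

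**Figure D4:**
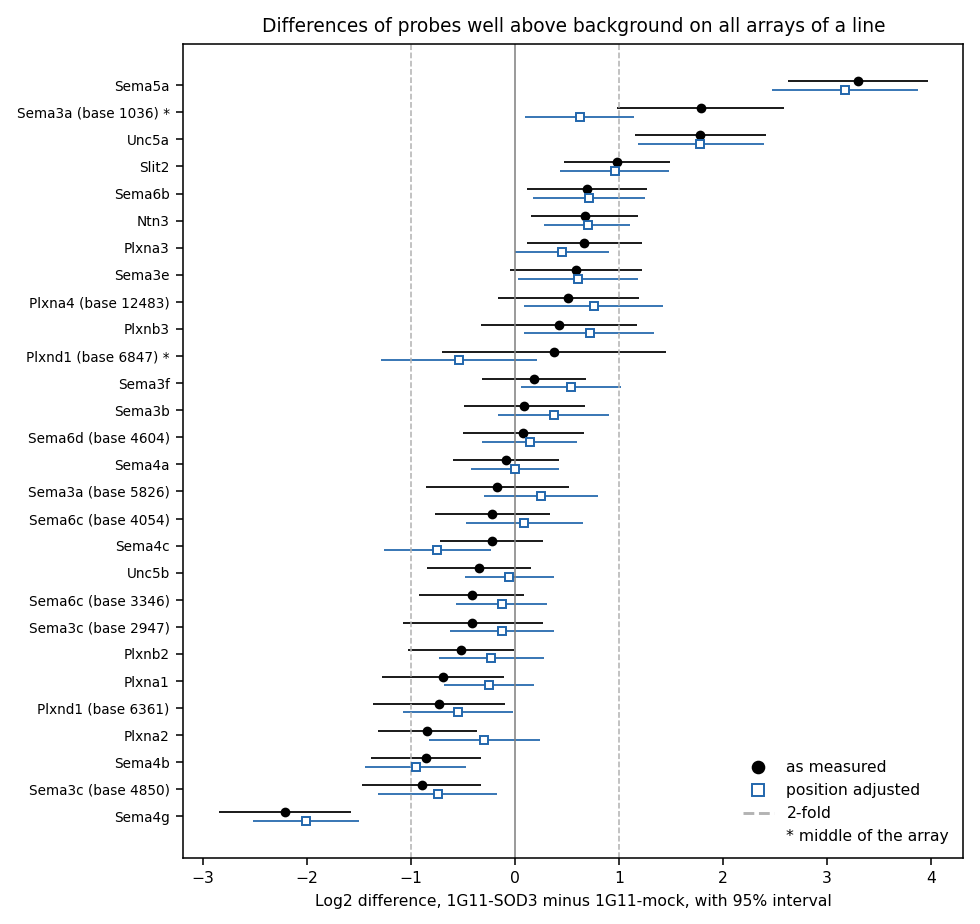
Log2 difference, 1G11-SOD3 minus 1G11-mock, with its 95% interval, for the 28 guidance probes well above background on all arrays of at least 1 line, as measured (filled circles) and position adjusted (open squares). Dashed lines mark 2-fold; *Sema5a*, *Unc5a* and *Sema4g* lie beyond them in both, and *Sema3a* (base 1036) in the first only.

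The wider pathway was read in a list of 49 co-receptors, other ligands and signaling partners, each represented by its brightest probe. All were on the array, 38 were well above background on all arrays of a line and 10 on none. As measured, 3 were called higher and 0 lower, where 2.93% and 1.72% of all genes were, and after the position adjustment 1 was called higher and 0 lower, where 1.07% and 1.02% were. The list's median difference was -0.11, beside -0.03 over all genes, and 0.02 beside 0.02 after the adjustment. *Srgap3*, of a protein family that binds the intracellular part of Robo receptors, was called at its brightest probe with and without the adjustment. It read 9.90, 10.09 and 9.39 in 1G11-mock and 10.83, 11.64 and 11.34 in 1G11-SOD3, all arrays apart. The difference was 1.48 (SE 0.28; limma, adjusted p = 0.0166), and 1.57 (adjusted p = 0.00739) after the adjustment. Neither of the other *Srgap3* probes was called, with differences of 0.99 and 0.84 (0.94 and 0.86 after the adjustment). Both were well above background on no 1G11-mock array.

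The other called genes of the list lost the call with the adjustment. The brightest probe of *Rnd1*, a small GTPase that binds plexins, lies in the middle of the array. Its difference of 1.56 (limma, adjusted p = 0.0333) became -0.25 (adjusted p = 0.733). The other *Rnd1* probe, outside the middle and well above background on every array, was not called. There the difference was 0.28 (limma, adjusted p = 0.637), or 0.33 after the adjustment. *Enah*, an actin regulator downstream of guidance receptors, was well above background in 1G11-SOD3 only, at least 1.44-fold higher, and its difference of 1.03 (adjusted p = 0.0299) became 0.64 (adjusted p = 0.186). The co-receptors of the semaphorins and netrins were not called in this way. At their brightest probes *Nrp1* had a difference of 0.61 (95% interval -0.03 to 1.24) and *Nrp2* one of -0.70 (-1.38 to -0.02), which were 0.66 and -0.26 after the adjustment. For the netrin receptors the differences were -0.55 for *Dcc* (-1.40 to 0.29) and -0.16 for *Neo1* (-0.87 to 0.54), or -0.72 and -0.04 after the adjustment. All 4 were well above background on every array at these probes, but the other 2 of 3 *Dcc* probes were so on none. When any probe of a gene was counted, *Nrp2* was called lower at its second probe, which read 11.65, 11.97 and 12.02 in 1G11-mock and 10.19, 11.07 and 10.53 in 1G11-SOD3. That difference was -1.28 (SE 0.27; limma, adjusted p = 0.0255), and -0.73 (adjusted p = 0.185) after the position adjustment.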

How the data were processed

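The authors deposited, per array, Agilent Feature Extraction 10.7.3.1 output with mean, median and background intensities and a processed signal, and a table of their own log2 values (normexp with an offset of 50, then quantile normalization). Here, mean intensities without control spots were corrected by normexp on the local background median (offset of 50), log2-transformed and adjusted by quantiles (limma 3.58.1, R 4.3.3). Non-uniform and population outlier spots were dropped and copies of a probe averaged. The lines were compared by lmFit and eBayes over all probes. The study describes the arrays of a line as independent experiments. Precision is limited by 3 arrays per line and, at dim probes, by background.

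The position adjustment used a Gaussian surface of width 4 spots, its strength scaled in 30 intensity bins. The scaling was chosen after seeing the data, since the unscaled surface shifted dim spots. On simulated data with a dim middle, 195 of 200 changed probes were found with 1160 other calls unadjusted, and 200 with 7 others adjusted. There the dimming was uniform over the middle, and the changed probes were bright with large changes. These counts therefore do not bear on the graded dimming of the real arrays or on probes at background.

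Genes named with array values were members with an adjusted p under 0.05 in either fit, the brightest probe of each subfamily and genes with probes inside and outside the middle; others named were chosen after their values were seen. Members and lists were chosen with earlier results of these data known. Symbols came from the probe descriptions, and all 45 are in the RefSeq table of GRCm38.p6. Alternatives were the background correction, offset, intensity column, normalization, outlier and dim spots, variance trend, replicate block, deposited table, omission of each array or of the middle, and the brightest probe per gene. Python 3.11.15, pandas 2.3.3 and matplotlib 3.10.9 made tables and figures.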

Additional observations from a re-analysis of the deposited data

How the results depend on the processing

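For 15 named probes, 434 of 493 values under alternatives kept their direction and side of the threshold, 21 lost the call, 2 gained it and 36 changed sign. *Sema5a* and *Sema4g* were called under every alternative run. The members called ranged from 2 to 5 when arrays were left out with or without a position adjustment, those higher from 1 to 4 and those lower from 1 to 2. With the scaled adjustment, the count higher was 1 without 1G11-mock replicate 2, which lost *Unc5a*, and 4 without 1G11-SOD3 replicate 3, which added *Slit2* and *Plxnb3*. The unscaled adjustment also called *Unc5cl*, which was at background on all arrays, and lost *Unc5a* when 1G11-SOD3 replicate 1, 2 or 3 was left out (adjusted p = 0.14, 0.111 and 0.0885). The processed signal gave a median over all probes of -0.52. It called 1200 of all 55681 probes higher and 9918 lower, where the processing used above called 1041 and 588. Among the members it called *Slit2* (1.52) but not the middle *Sema3a* probe (limma, adjusted p = 0.0534). It called 3 members lower, adding *Sema4b* (-1.06) and *Robo3*, which was at background on all arrays. Under it *Plxnb2* was at 0.03, *Unc5b* at 0.09 and the middle *Plxnd1* probe at -0.39. Scaling to the 75th percentile moved the median over all probes to -0.34. The unscaled surface gave -0.28 for the middle *Plxnd1* probe and 0.15 for the outer *Sema3a* probe, beside -0.54 and 0.25 with scaling. *Sema6d* was at -0.10 in the deposited table and -0.09 with median intensities. Over omitted arrays the middle *Plxnd1* probe ranged from -0.81 to 0.82, the outer *Sema3a* probe from -0.51 to 0.38, *Sema6d* from -0.12 to 0.33 and *Unc5b* from -0.47 to 0.03; none was called. The pathway list had 1 gene called higher after the scaled adjustment, 2 after the unscaled one, and 1 lower, *Nrp2*, when any probe of a gene counted. The arrays were not treated as paired by replicate number. Same-number correlations were 0.166, 0.225 and 0.087, and every array correlated best with its own number. Replicates 1, 2 and 3 of each line lay in columns 1, 2 and 3 of the slide, so replicate number and slide column cannot be told apart. With the replicate block the members called stayed at 4, while 2260 probes were called in place of 1629.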
